A study of Homo sapiens with 8 samples.

Results

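MHC class II genes are switched on by CIITA, a transactivator that does not bind DNA itself. It docks on a platform of sequence-specific factors at the promoter, in which the RFX complex (RFX5, RFXANK and RFXAP) binds the X box, CREB1 binds the neighbouring X2 box and the trimer NF-Y (NFYA, NFYB and NFYC) binds the Y box, a CCAAT element. Loss of RFX5, RFXANK or RFXAP is a known cause of bare lymphocyte syndrome, in which MHC class II is missing. Unlike CIITA, these factors are present in most cell types. The 7 genes that encode them were taken by name from 19970 protein-coding genes on chromosomes 1 to 22 and X, and the open chromatin at their own promoters is described here. For each, the peaks within 1 kb of an annotated transcription start, and those in the gene body or within 10 kb, were read from each list. In all, 11 regions lay at these genes, of 52105 regions in the series.

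The data are FAIRE-seq peak lists from U2OS, a human osteosarcoma cell line. FAIRE recovers DNA that is free of nucleosomes after formaldehyde fixation, so that a peak marks open chromatin. The study asked whether ZBTB48, a zinc finger protein that binds telomeric repeats and promoters, opens chromatin at the promoters it binds. The genotypes compared were wild type (WT, clones WT_4 and WT_5) and a ZBTB48 knockout (KO, clones KO_C5 and KO_D2), each clone untreated and after 250 U/ml interferon gamma (IFNγ). This gave 4 groups of 2 libraries, each from 1 clone. Replicate 1 of each group was WT_4 or KO_C5 and replicate 2 was WT_5 or KO_D2. The labels give 24 hours of IFNγ, whereas the study's text also gives a longer treatment for FAIRE-seq, so the duration is uncertain. The loss of ZBTB48 cannot be checked in peak lists.

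The lists held 16730 to 37533 peaks, and the weakest peak of any list had 5 or 6 fragments at its summit. Local background around peaks was lower in WT than in KO libraries, with library medians of 1.01 to 1.55 and 1.83 to 3.05 fragments. The IFNγ list of WT_4 stood apart. It was the shortest of the 4 IFNγ lists, with 18913 peaks against 24727 to 37533. With IFNγ 32.4% of promoters ranked higher in WT_4, against 65.1% to 82.3% in the other 3 clones. Of 6 osteoblast and mesenchymal genes, RUNX2, COL1A1 and VIM had a promoter peak in all 8 lists, SPARC in 5, TWIST1 in 1 and COL1A2 in 0. Among genes of other lineages, EPCAM had one in 8 lists, CDH1 in 2, SPI1 in 1 and PTPRC, CD3E and CD79A in 0. The epithelial gene EPCAM thus went against the labelled lineage. In bulk chromatin, fewer cells with an open site and a site less open in each cell cannot be told apart.

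Promoter sequences of RefSeq (GRCh38.p14) were matched for 6 of the 7 genes, all except NFYB. They are shown because RFX5 and NFYC hold CCAAT, the NF-Y element, ahead of their own starts (capitals), while RFXAP and NFYA hold none in the stretch printed. Each runs 5′ to 3′ on the strand of the gene and stops short of annotated untranslated sequence. The RFX5 run lies 250 to 75 bp before the canonical start (chr1:151347327-151347502, minus strand), the NFYC run 250 to 57 bp before (chr1:40691454-40691647, plus strand), and the RFXAP and NFYA runs in the 200 bp before (chr13:36819022-36819221 and chr6:41072774-41072973, plus strand).
RFX5: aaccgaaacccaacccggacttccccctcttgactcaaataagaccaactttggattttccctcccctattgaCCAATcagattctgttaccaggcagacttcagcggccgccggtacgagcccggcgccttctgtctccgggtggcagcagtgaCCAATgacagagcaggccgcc
NFYC: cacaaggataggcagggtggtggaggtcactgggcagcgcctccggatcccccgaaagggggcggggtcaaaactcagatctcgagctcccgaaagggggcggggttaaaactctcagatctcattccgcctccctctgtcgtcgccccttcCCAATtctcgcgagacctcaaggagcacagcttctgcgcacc
RFXAP: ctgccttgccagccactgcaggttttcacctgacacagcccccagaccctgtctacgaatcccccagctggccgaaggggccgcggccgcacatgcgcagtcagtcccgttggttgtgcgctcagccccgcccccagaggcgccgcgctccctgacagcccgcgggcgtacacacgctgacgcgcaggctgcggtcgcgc
NFYA: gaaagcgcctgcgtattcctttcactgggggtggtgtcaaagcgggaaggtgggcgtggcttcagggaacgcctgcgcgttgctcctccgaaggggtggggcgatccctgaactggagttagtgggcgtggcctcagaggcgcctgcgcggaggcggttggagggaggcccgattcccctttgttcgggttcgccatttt

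Motifs were searched on both strands in the 300 bp from 250 bp before to 50 bp after the start, in 14915 promoters. CCAAT was found in 36.8% of all promoters, and among the 6 promoters in RFX5, NFYA and NFYC. In RFX5 it occurred at 177 and 95 bp before the start, and all 8 RFX5 peaks covered both copies. The RFX5 summits lay 36 to 83 bp from the first and 1 to 46 bp from the second. In NFYC it lay 98 bp before the start and in NFYA 45 bp past it on the opposite strand, and all 8 peaks covered each. The CREB element TGACGTCA (2.82% of all promoters), the telomeric hexamer TTAGGG bound by ZBTB48 (8.51%) and the control hexamer GTGAGT (11.2%) were found in 0 of the 6. No match says only that these letters are absent from the window.

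All of these genes had open promoters in nearly every library. A promoter peak was listed in all 8 libraries for 6 of the 7 genes, against 52.1% of all protein-coding genes, and for RFXANK in 7. Peak strength is given below in 2 ways. Fold enrichment is the deposited ratio of the fragment pileup at the summit to local background, with 1 fragment added to each. The percentile is the rank of the peak by −log10 p among all peaks of its own list. On the percentile scale the median promoter of the 10395 genes with a peak in every list stood at 78.9, between 70.1 and 86.4 in single libraries. The genes' own medians over libraries ran from NFYA (98.6) and CREB1 (98.5) through NFYC (89.2), RFX5 (84.7), NFYB (78.3) and RFXANK (73.5, 7 libraries) to RFXAP (73.0). The ranges of neighbours in this order overlapped, except those of CREB1 and NFYC. CREB1, with its lowest value at 97.3, lay above every value of RFX5, RFXANK, RFXAP, NFYB and NFYC.

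**Figure D1:**
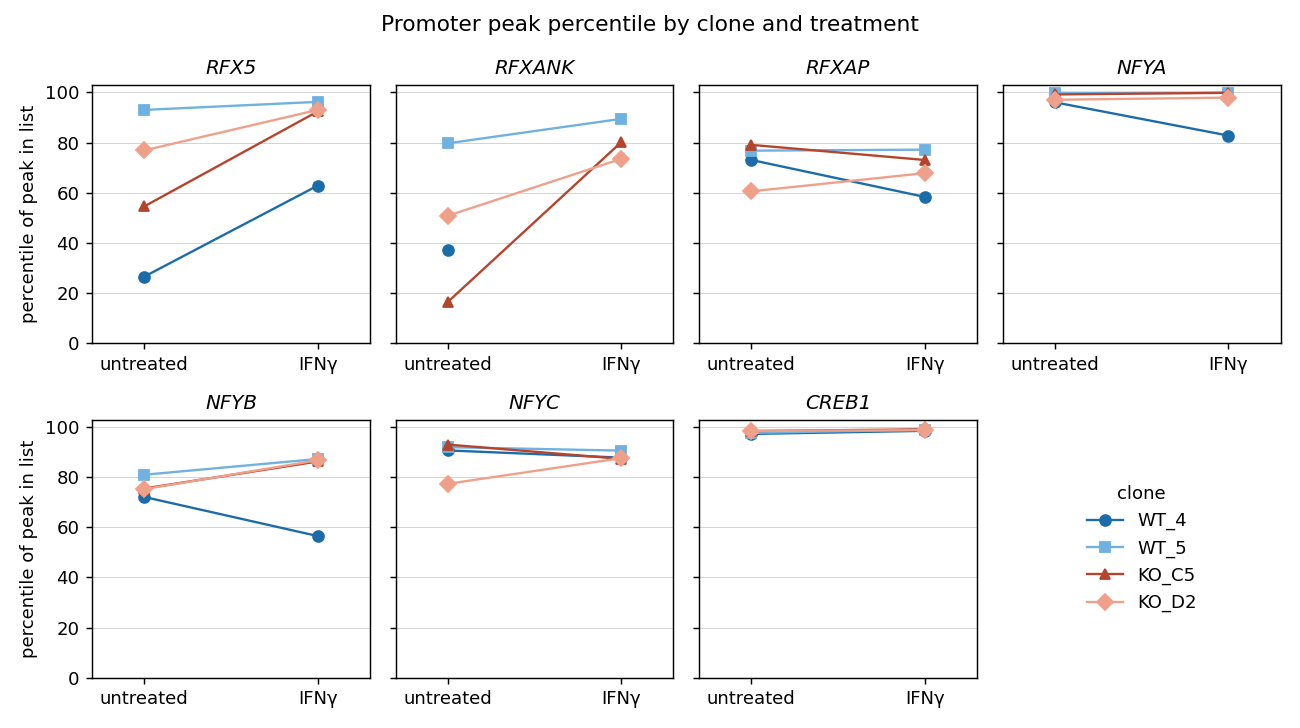
Percentile of the strongest promoter peak within its own list (y axis, 0 to 100), untreated and after IFNγ (x axis), with 1 line for each clone. RFX5 ran upward in all 4 clones, CREB1 stayed at 97.3 or above, and the IFNγ value of WT_4 was the lowest IFNγ value at RFX5, RFXAP, NFYA, NFYB and CREB1, with no RFXANK peak in that library.

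RFX5 encodes the DNA-binding subunit of the RFX complex, and its promoter had the widest spread of the 6 genes with a peak in every list. The gene lies on the minus strand of chromosome 1 (151340640 to 151347326), and the antisense gene RFX5-AS1 starts 314 bp inside it. Untreated, the RFX5 peak ranked at percentile 26.5 in WT_4, 93.0 in WT_5, 54.5 in KO_C5 and 76.9 in KO_D2. After IFNγ it ranked at 62.8, 96.2, 92.4 and 93.0 in the same order. The IFNγ value was thus the higher in each clone, but the treatments overlapped, with untreated WT_5 above the IFNγ values of WT_4 and KO_C5.

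Fragments showed the same order within clones. The untreated RFX5 summit held 12, 126, 44 and 74 fragments in WT_4, WT_5, KO_C5 and KO_D2, and the IFNγ summit 36, 168, 173 and 151. Fold enrichment was 6.96, 54.1, 11.9 and 22.9 untreated and 20.3, 83.8, 39.4 and 30.4 after IFNγ. Local background lay between 0.822 and 1.35 fragments in WT and between 2.28 and 4.00 in KO libraries. The peak was also the wider after IFNγ in each clone, at 265 and 729 bp in WT_4, 776 and 847 bp in WT_5, 337 and 782 bp in KO_C5 and 715 and 839 bp in KO_D2. The narrow peaks of untreated WT_4 and KO_C5 ended close to the canonical start, whereas the other 6 reached the start of RFX5-AS1. A wider peak after IFNγ in all 4 clones was found at 10.7% of all genes tested and at 1 of the 6 genes here, RFX5.

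Over treatments, RFX5 averaged 62.7 ± 28.9 untreated and 86.1 ± 15.6 after IFNγ (SD, n = 4 libraries each), a difference of 23.4 percentile points that did not exceed the spread between libraries (two-sided exact permutation p = 0.2, smallest possible 0.0286). Tests across genes used the probit of the percentile, its position on a normal scale. On this scale RFX5 was higher by 0.83 (SE 0.45) after IFNγ and did not pass the test (limma, adjusted p = 0.999). This difference was larger than that of 99.3% of the genes tested. With the clone as a block the unadjusted limma p was 0.000412 and the adjusted p 0.179. Within clones the IFNγ minus untreated difference was 36.4 points in WT_4, 3.22 in WT_5, 37.9 in KO_C5 and 16.2 in KO_D2, against medians over all genes of -2.82, 2.64, 2.52 and 6.21. Clones of 1 genotype also differed at RFX5, more in WT than in KO. Untreated WT_4 lay 66.6 points below WT_5, where the median gene differed by 5.74 points and 99.7% of genes differed by less than RFX5. Untreated KO_C5 lay 22.4 points below KO_D2, against a median of 8.996. After IFNγ WT_4 lay 33.4 points below WT_5 (median gene 10.5), while KO_C5 and KO_D2 were 0.5995 points apart (median gene 4.47).

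By genotype RFX5 averaged 69.6 ± 35.3 in WT and 79.2 ± 8.12 in KO (SD, n = 2 clone means each). The difference of 9.58 points lay within the spread of the WT clones (two-sided exact permutation p = 1, smallest possible 0.333). The 3 genes whose probit percentiles followed RFX5 most closely over the 8 libraries were LMAN2, ENSG00000285329 and CCDC121 (Pearson's r of 0.993, 0.993 and 0.992). LMAN2 ranked between percentiles 7.11 and 86.1, lowest in untreated WT_4 and highest in WT_5 after IFNγ, as RFX5 did. Of 10389 genes compared, 502 had an r above 0.9 with RFX5, all over the same 8 libraries.

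**Figure D2:**
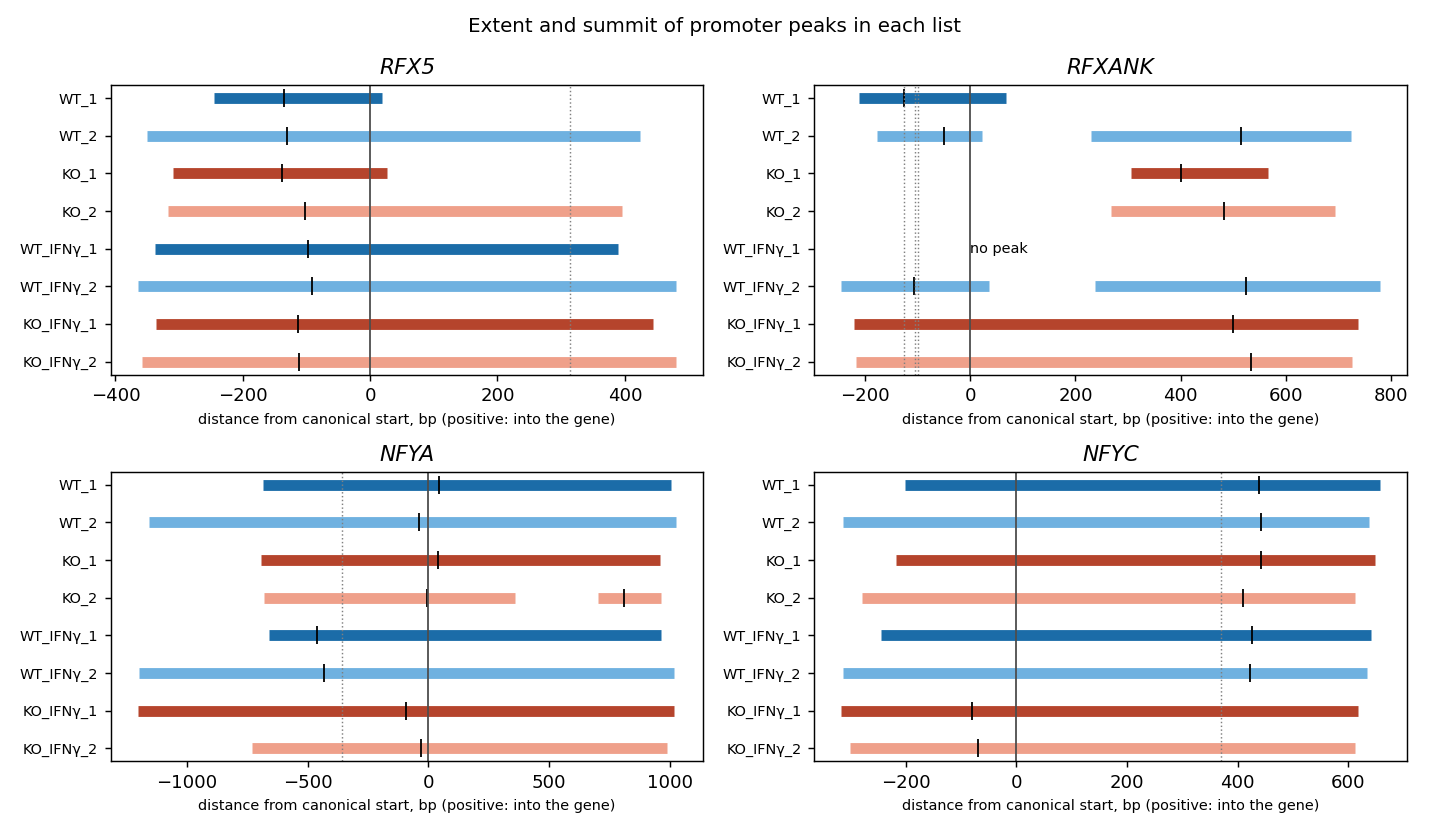
Extent of each promoter peak (bar) and its summit (tick) in each list at RFX5, RFXANK, NFYA and NFYC, by distance in bp from the canonical start (solid line, positive into the gene). Dotted lines mark the nearest start of each neighbouring gene. The RFX5 peak was wider after IFNγ in each clone, RFXANK showed an outer and an inner site, and the strongest point moved across the neighbour's start at NFYA in both IFNγ WT libraries and at NFYC in both IFNγ KO libraries.

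RFXANK, the ankyrin repeat subunit that joins the complex together, was the only one of the 7 without a promoter peak in every list. It lies on the plus strand of chromosome 19 (19192229 to 19201869), head to head with BORCS8, MEF2B and their read-through BORCS8-MEF2B, which start 106, 127 and 100 bp before its canonical start. Of its 14 annotated starts, those within 1 kb of the canonical start form an outer cluster of 4 and an inner cluster of 6 that lies 505 to 712 bp inside. The strongest peak ranked at percentile 37.0 in untreated WT_4, 79.7 in WT_5, 16.3 in KO_C5 and 50.8 in KO_D2. After IFNγ there was no peak in WT_4, and the other clones stood at 89.5 (WT_5), 80.2 (KO_C5) and 73.5 (KO_D2). In the 3 clones with a peak in both libraries the IFNγ value was the higher. Summit fragments were 65 untreated and 106 after IFNγ in WT_5, 15 and 100 in KO_C5 and 37 and 67 in KO_D2. Fold enrichment ranged from 5.65 in untreated KO_C5 to 56.5 in WT_5 after IFNγ. Since 1 library lacked the peak, RFXANK entered no fit across genes. The missing peak is an absence from a list that starts at 5 fragments, and does not show that the site was closed.

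The inner RFXANK site carried the strongest summit in 6 of the 7 libraries with a peak, between 401 and 534 bp past the canonical start. In untreated WT_4 the peak sat over the outer starts instead, with its summit 126 bp before the canonical start. WT_5 listed both sites as separate peaks, and its outer peak ranked at percentile 35.9 untreated and 58.9 after IFNγ. In KO_C5 and KO_D2 the untreated peak left the canonical start uncovered. After IFNγ a single peak of 960 and 945 bp spanned both sites in these clones. This pattern, a peak over the canonical start in both IFNγ and neither untreated KO library, was noticed in the data and was shared by 2.42% of all protein-coding genes. The short intron stretch just before the inner starts is shown because all 6 of those peaks lay over it (chr19:19192686-19192762, plus strand, from the GRCh38 reference). It held 0 matches to the 4 motifs.
RFXANK inner intron: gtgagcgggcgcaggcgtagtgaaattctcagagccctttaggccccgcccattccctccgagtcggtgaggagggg

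RFXAP, the third RFX subunit, has no other gene starting in its promoter window (chromosome 13, 36819222 to 36829104, plus strand). Its peak ranked at percentiles 73.0, 76.8, 79.1 and 60.5 in untreated WT_4, WT_5, KO_C5 and KO_D2, and at 58.3, 77.2, 73.0 and 67.8 after IFNγ. The treatments overlapped, and the IFNγ value was higher in 2 of the 4 clones. Means were 72.3 ± 8.27 untreated and 69.1 ± 8.15 after IFNγ (SD, n = 4 each, two-sided exact permutation p = 0.571). Summits held 32 to 75 fragments and lay 24 to 68 bp before the start in every library. Fold enrichments were 17.5 to 36.6. Among the promoters with a peak in every list, a median of 34.5% ranked below RFXAP, from 26.8% to 59.1% in single libraries.

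NFYA encodes the subunit of NF-Y that contacts CCAAT, and its promoter was among the strongest peaks of 7 lists. The gene (chromosome 6, 41072974 to 41102403, plus strand) starts head to head with OARD1, whose nearest start lies 360 bp before that of NFYA, and 1 peak covered both. Untreated percentiles were 96.1 in WT_4, 99.8 in WT_5, 99.2 in KO_C5 and 97.1 in KO_D2. After IFNγ they were 82.8, 99.9, 99.9 and 97.9. The IFNγ library of WT_4 was the lowest, with 88 fragments at the summit against 157 to 399 in the other 7. Means were 98.0 ± 1.77 untreated and 95.1 ± 8.28 after IFNγ (SD, n = 4 each, two-sided exact permutation p = 0.886). The summit sat between 92 bp before and 42 bp past the start in 6 libraries, and 460 and 434 bp before it, on the OARD1 side, in IFNγ-treated WT_4 and WT_5. At 0.346% of the genes tested both libraries of 1 group had a summit at least 300 bp from all others, a pattern also chosen after it was seen. NFYC was the other gene here that showed it.

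NFYB, a histone-fold subunit of NF-Y, shares its promoter with no other gene (chromosome 12, 104117086 to 104138241, minus strand). It ranked at percentiles 72.1, 81.0, 75.5 and 75.3 in untreated WT_4, WT_5, KO_C5 and KO_D2, and at 56.5, 87.3, 86.3 and 86.8 after IFNγ. The IFNγ value was higher in 3 clones and lower in WT_4, so that the treatments overlapped. Means were 75.98 ± 3.69 and 79.2 ± 15.1 (SD, n = 4 each, two-sided exact permutation p = 0.743). Summit fragments were 62 and 28 in WT_4, 66 and 92 in WT_5, 62 and 97 in KO_C5 and 51 and 82 in KO_D2, untreated and after IFNγ. Local background at NFYB was the lowest of the 7 genes, at 0.626 to 1.08 fragments, and the summit stayed within 13 to 59 bp past the start. Without the IFNγ library of WT_4 the probit difference was 0.41 (SE 0.14, limma, adjusted p = 0.146). It exceeded that of 75.6% of the genes tested, whose median in this setting was 0.19. The 3 remaining IFNγ percentiles lay above all 4 untreated ones, and the share of all genes with such a separation is not given here.

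NFYC, the other histone-fold subunit, starts 370 bp before the antisense gene NFYC-AS1 (chromosome 1, 40691648 to 40771603, plus strand), and MIR30C1 starts near an internal NFYC start. Its percentiles were 90.7, 92.0, 93.1 and 77.4 in untreated WT_4, WT_5, KO_C5 and KO_D2, and 87.8, 90.7, 87.4 and 87.6 after IFNγ. Untreated KO_D2 was the lowest library, and the treatments overlapped. Means were 88.3 ± 7.34 untreated and 88.4 ± 1.53 after IFNγ (SD, n = 4 each, two-sided exact permutation p = 1). In 6 libraries the summit lay 409 to 443 bp past the start, beyond that of NFYC-AS1. In IFNγ-treated KO_C5 and KO_D2 it lay 81 and 70 bp before the start instead, as near as 15 bp to the CCAAT shown above. The extent of the peak varied little, with widths of 860 to 952 bp in the 8 lists.

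CREB1, the X2 box factor, had the narrowest range of percentiles, close to the upper end of that scale, and a non-coding gene, ENSG00000223725, starts 167 bp before it (chromosome 2, 207529737 to 207605988, plus strand). Untreated percentiles were 97.3 in WT_4, 97.7 in WT_5, 98.5 in KO_C5 and 98.5 in KO_D2. After IFNγ they were 98.5, 99.0, 99.1 and 98.8. Every IFNγ value lay above every untreated one, by a mean of 0.888 points (98.0 ± 0.581 and 98.9 ± 0.262, SD, n = 4 each, two-sided exact permutation p = 0.0286, the smallest possible). Such a separation was found at 0.962% of all genes tested. The permutation treated the untreated and IFNγ libraries of 1 clone as separate, although they are paired. The gap was smaller than the median IFNγ minus untreated difference of all genes, 2.25 points, and on the probit scale CREB1 was higher by 0.23 (SE 0.14, limma, adjusted p = 0.999). The order depended on the scale, since centred log2 fold enrichment gave -0.10 (SE 0.14) and centred log2 summit fragments -0.03 (SE 0.14). Summits held 153 to 275 fragments, at 68 to 135 bp before the start, and fold enrichment ran from 50.4 to 107, a relative range like that of RFXAP. Peak width ran from 861 to 1438 bp.

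**Figure D3:**
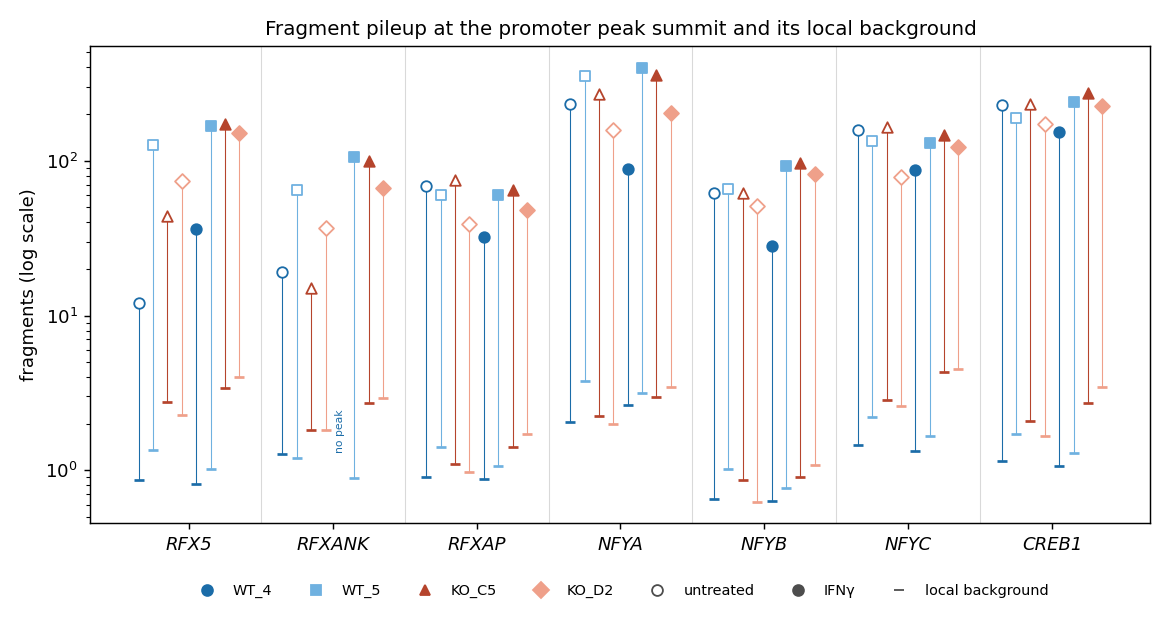
Fragments at the promoter peak summit (symbols) and in its local background (dashes) on a log scale, for each gene and library, open symbols untreated and filled symbols after IFNγ. At RFX5 the summit ranged from 12 to 173 fragments and at CREB1 from 153 to 275, with higher background in KO than in WT libraries at RFX5.

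The comparison by treatment asked which of these promoters IFNγ altered. An IFNγ percentile above the untreated one in all 4 clones was found at RFX5 and CREB1, 2 of the 6 genes, against 16.4% of all genes tested. None of the 6 passed limma with Benjamini-Hochberg adjustment, and neither did any of the 10395 genes (0%, 0 called, 226 or 2.17% at an unadjusted p under 0.05). That fit left out the pairing of libraries by clone. With the clone as a block 1363 genes (13.1%) had an unadjusted limma p under 0.05, RFX5 among them, and 0 were called. The median probit difference was 0.10 over the 6 genes and 0.11 over all genes. Differences ran from -0.10 at RFXAP to 0.83 at RFX5, and 4 of 6 were above 0.

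The comparison by genotype asked whether these promoters depended on ZBTB48. KO and WT percentiles overlapped at all 6 genes, where 7.07% of all genes tested did not overlap. Across genes limma called 0 of 10395 (0%, 93 at an unadjusted p under 0.05) and 0 of the 6. The probit difference, KO minus WT, ran from -0.17 at NFYC to 0.20 at NFYB, with adjusted p = 0.998 at each. On centred log2 fold enrichment the differences ran from -0.19 (SE 0.26) at NFYC to 0.80 (SE 0.28) at NFYB, with 0.69 (SE 0.31) at NFYA and 0.48 (SE 0.30) at RFXAP, where the probit difference was -0.04. For NFYB, NFYA and RFXAP the unadjusted limma p values were 0.0203, 0.058 and 0.156, the adjusted ones 0.731, 0.731 and 0.77. Of all genes 6.47% had an unadjusted limma p under 0.05 on that scale. At NFYB the KO and WT values did not overlap on it, and the share of all genes without such overlap is not given. On the probit scale the median of the 6 genes was 0.13, while that of all genes was -0.16. With 2 clones of each genotype the interval is wide, and the SE on the probit scale was 0.26 to 0.49.

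Whether IFNγ acted differently in KO and WT clones was tested on the IFNγ minus untreated difference of each clone. Limma called 3 of 10395 genes, 0.0289%, and 0 of the 6 here. The 3 were HECTD3, UROD and ALG10, named because they are so few. The NFYA difference was 0.67 (SE 0.30) higher in KO (limma, unadjusted p = 0.0357, adjusted p = 0.411), the lowest p of the 6. Of all genes tested, 1163 (11.2%) had an unadjusted limma p under 0.05 here. Their median difference over all 10395 was 0.21, and NFYA stood at place 86.7% in the order of differences. In this gene the IFNγ minus untreated difference was -13.3 percentile points in WT_4 and 0.0757 in WT_5, against 0.661 and 0.863 in KO_C5 and KO_D2. Without WT_5 the contrast rested on WT_4 alone, and the NFYA difference was 1.18, beside a median of 0.37 over all genes in that setting. The remaining 5 genes had adjusted p values between 0.525 and 0.901 in the limma fit.

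**Figure D4:**
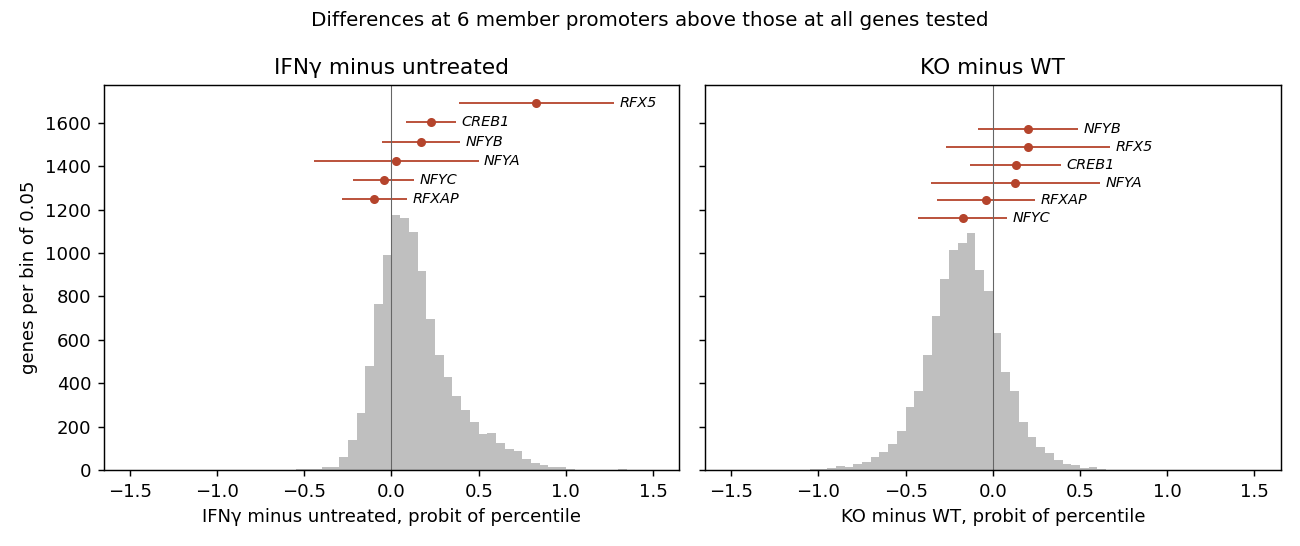
Differences in the probit of the percentile (x axis) at the 6 genes with a peak in all 8 lists (points, bars are SE) above the distribution over all 10395 genes (grey bars, genes per bin of 0.05), for IFNγ minus untreated and KO minus WT. RFX5 at 0.83 lay in the upper tail of the IFNγ differences, and all 6 genes lay between -0.17 and 0.20 by genotype on this scale.

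Away from the promoters these genes had few peaks. Only 4 regions lay in a gene body or within 10 kb and more than 1 kb from a start of the gene, and RFX5, RFXAP, NFYB and CREB1 had none, as 37.1% of all genes. The most frequent lay 1257 bp past the end of RFXANK (chr19:19203127-19203835) over the start of NR2C2AP, and was listed in 6 libraries, all 4 after IFNγ and WT_5 and KO_D2 untreated. Its fold enrichment was 16.3 untreated and 31.9 after IFNγ in WT_5, and 6.36 and 15.5 in KO_D2. In WT_4 and KO_C5 it was listed after IFNγ alone, at 7.97 and 19.8. At NFYA a region in an exon over another OARD1 start (chr6:41097761-41098070) was listed in untreated KO_C5 and in IFNγ-treated WT_5 and KO_C5, at folds of 10.4, 5.15 and 7.25. A region centred 5926 bp before NFYA (chr6:41066928-41067168) was listed in untreated KO_C5 alone. One in an NFYC intron (chr1:40714886-40715197) was listed in untreated WT_4 alone. None of the 4 followed the genotype or the treatment in all libraries. Among 26298 such regions at protein-coding genes, 0.148% were listed in all IFNγ and no untreated library and 44.9% in 1 library.

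The wider pathway was given by 24 genes in 5 lists. All 9 coactivators used by CIITA and all 5 CREB1 relatives and CREB coactivators had a promoter peak in every list. Of the 7 other RFX family genes 5 did, while RFX4 and RFX6 had one in 0 lists. ANKRA2, the RFXANK paralogue, had one in 7 lists, all but untreated KO_C5. NLRC5, the MHC class I counterpart of CIITA, also had one in 7, all but untreated KO_D2. CIITA was the exception, with a promoter peak in all 4 IFNγ and 0 of 4 untreated lists, a pattern found at 4 of 19970 genes (0.02%). This pools all annotated CIITA starts and does not separate the promoter that ZBTB48 binds (pIII). At pIII the study reported more open chromatin in WT than in KO clones by FAIRE with quantitative PCR, untreated and after IFNγ. Its FAIRE-seq tracks after IFNγ were also reported to show open chromatin at pIII in WT and none in KO. Thus 19 of the 24 had a peak in all 8 lists, and limma called 0 of these by treatment, by genotype or in the difference of responses, the lowest adjusted p being 0.225. Their median probit difference after IFNγ was 0.12, beside 0.11 over all genes, and by genotype -0.10, beside -0.16. For the difference of responses the median was 0.28, beside 0.21. On that contrast 4 of the 19 had an unadjusted limma p under 0.05, as did 11.2% of all genes tested.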

How the data were processed

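FAIRE-seq was performed by the authors in 8 libraries of U2OS clones. Per the labels and the study's methods, adapters were trimmed (Trimmomatic), reads were aligned to GRCh38 (Bowtie2 2.2.5), reads with mapping quality under 30 were removed (SAMtools 1.14) and peaks were called per library (MACS2 2.2.7.1, paired-end). Whether input DNA served as control and how duplicates were treated is not given in the sources used here. The lists precede the authors' reproducibility filter. The deposited fold enrichment is a ratio of summit pileup to local background, with 1 fragment added to each. MACS2 also gave each peak the deposited −log10 of its p-value and of its q-value (at least 1.30). The deposited score was not used.

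Each peak was ranked by −log10 p within its list on chromosomes 1 to 22 and X, so that list length and the strength of other peaks affect a percentile. Whole fragments at the summit and the local background were solved from fold and p under the Poisson formula (99.5% to 100% of peaks whole within 0.01), and stand in for depth. Promoters were 1 kb either side of any start of the gene in GENCODE 44, and the strongest peak was used. Limma 3.58.1 (R 4.3.3, trended eBayes, Benjamini-Hochberg) was fitted over 10395 protein-coding genes with a promoter peak in all 8 lists, treatment on 8 libraries with genotype as covariate, and genotype and the difference of responses on clone values. Values of single genes were tested by exact permutation, over 70 assignments of libraries for treatment, which treats libraries of 1 clone as separate. Replicates are clones, so p-values by genotype and for the difference of responses measure the spread between 2 clones per genotype. Treatment p-values without the clone as a block measure the spread between libraries, which mixes differences between clones and within them. The code was tested on simulated data (Python 3.11.15, scipy 1.17.1).

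The labels pair the libraries of a clone. Their deviations from group means correlated at 0.698 in WT and 0.466 in KO. WT and KO clones share only a number. The members and lists were chosen with earlier results of these data known. All 7 members were named, other pathway genes where they lacked a peak in at least 1 list or passed the test, and the 3 genes most like the member with the widest range. Summit fragments as a measure and the patterns of summits and of the RFXANK start were added after seeing the data. A marker gene is not reported here.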

Additional observations from a re-analysis of the deposited data

Results flagged for a closer look

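Dixon's ratio sets the gap of the end value against the whole range. It was taken in 26 groups of 4 libraries (WT, KO, untreated or IFNγ at each gene). The ratio was above the 95% critical value in 5. Among independent groups of normal values chance alone flags about 1 in 20. The groups here share libraries and hold bounded percentiles, so that rate does not apply directly. In 3 of the 5 the value was that of IFNγ-treated WT_4, the lowest IFNγ percentile at RFX5 (62.8), NFYA (82.8) and NFYB (56.5). Both others were at NFYC, where untreated KO_D2 was the lowest untreated library (77.4) and IFNγ-treated WT_5 the highest IFNγ library (90.7), the latter in a group that spanned few points. The part of depth or of the clone in these values was not tested.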

How the results depend on the processing

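Presence in all 8 lists (6 genes) did not change with other windows, thresholds or equal list lengths, and was 6 to 7 when each library was left out, RFXANK being complete without IFNγ-treated WT_4. Calls by treatment and by genotype were 0 under every alternative, including the clone or the replicate number as a block, which changed no call, so these zeros say little about stability. The WT and KO libraries of 1 number correlated at 0.389 untreated and -0.128 after IFNγ. For the difference of responses the 3 calls became 0 with centred log2 fold, centred log2 summit fragments, equal-length lists and a −log10 q of at least 3, 1 with a window of 500 bp, and 14 to 802 without single libraries, which leaves 1 genotype with 1 clone that is assumed to vary like the others. The largest count was that without KO_D2. The NFYA difference rose from 0.67 to 1.18 without WT_5, while the median of all genes rose from 0.21 to 0.37. Distal regions numbered 2 with the gene body only. Non-overlap by treatment was found at 0 genes with centred log2 fold, and at 1 to 2 without single libraries (NFYC joining CREB1 without untreated KO_D2, NFYB without IFNγ-treated WT_4). With ranks among tested genes, equal-length lists or summit fragments the 1 gene was RFXAP in place of CREB1. Non-overlap by genotype became 1 gene with centred log2 fold, ranks and equal-length lists (NFYB in each), and 0 to 1 without single libraries (NFYC without untreated KO_C5). Genes higher after IFNγ in every clone became 1, RFX5, with centred log2 fold, ranks, summit fragments and equal-length lists, and 2 to 4 without single libraries, NFYA and NFYB joining without either library of WT_4. The cause of these changes was not tested, and the shares of all genes with each pattern under these alternatives are not given. The RFX5 IFNγ difference was above 0 under all 16 alternatives, from 0.45 without untreated WT_4 to 1.29 without untreated WT_5 (limma, adjusted p = 0.153 to 1.0). The number of clones, 2 per genotype, and the absence of values below the calling threshold limit all comparisons.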
